A study of Homo sapiens with 8 samples.

Results

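The mitochondrially encoded genes were taken as every gene of the matrix whose name starts with MT-. They numbered 37 of 60286 genes: 13 protein genes, 2 rRNA genes and 22 tRNA genes, and 33 of the 37 had counts. They were measured by single-cell RNA sequencing in 43693 cells. The cells came from neural cultures, grown in 2-D or 3-D, of the established embryonic stem cell line H1. After papain dissociation and fixation, the cells were repeatedly divided over barcodes and mixed again, so that the series of barcodes a cell received marks it as 1 cell. The 8 samples were 8 sublibraries of one pool, each holding cells of all cultures, and their labels list dopamine, cocaine, morphine and untreated together.

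Cultures were told apart by 46 tags written in the cell names, which give the format and arrangement of the culture, then its treatment and a tag number. The labels do not spell out the abbreviations in the tags, nor doses or times, so the tags are printed as written. The arrangement 2DCocu held 4 tags each of AcCoc, AcMor and Vehic. The arrangement 3DFusi held 4 tags of AcCoc, 3 of AcMor and 3 of Vehic. The arrangements 2DMono and 3DMono each held 2 tags of AcDop, 2 of AcMor and 2 of Vehic. A further 12 tags named no treatment: 2 each of 2DProto2Fjo, 2DProto3Wu and 2DProto4Nic, and 3 each of 3DProto1For and 3DProto2Xia. Nothing says that tags with different numbers were separate cultures, so the p-values below measure the spread between tags, which may be technical.

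The human mitochondrial genome is a small circle present in many copies per cell. Both of its strands are transcribed into long RNAs that are then cut into separate RNAs, largely at the tRNAs that lie between the other genes. Its protein genes encode subunits of oxidative phosphorylation, the process that makes most ATP in neurons: the ND genes belong to complex I, MT-CYB to complex III, the CO genes to complex IV and the ATP genes to complex V. The 2 rRNAs, MT-RNR1 (12S) and MT-RNR2 (16S), are the RNA of the mitochondrial ribosome that translates these proteins. All other subunits of these complexes, and the proteins of that ribosome, are encoded in the nucleus.

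The genes lie so close together that some share bases, and this is where the counts of single genes are least certain. MT-ATP8 (chrM:8366-8572) and MT-ATP6 (chrM:8527-9207) share 46 bases on the plus strand of GRCh38, and MT-ND4L (chrM:10470-10766) and MT-ND4 (chrM:10760-12137) share 7. The shared bases are in capitals below, and a read from them cannot be given to 1 gene of the pair.
MT-ATP8 and MT-ATP6, chrM:8527-8572: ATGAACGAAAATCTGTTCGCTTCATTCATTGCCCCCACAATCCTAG
MT-ND4L and MT-ND4, chrM:10740-10786: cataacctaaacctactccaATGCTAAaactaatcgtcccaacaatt

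The labels give polyA RNA as the molecule, so the longest run of A inside the genes of highest level per length is shown next, with up to 30 bases on either side and the run in capitals. MT-ND6 is the protein gene read from the minus strand, and its sequence is printed as transcribed. Whether such runs were primed was not tested.
MT-RNR1, chrM:963-1028: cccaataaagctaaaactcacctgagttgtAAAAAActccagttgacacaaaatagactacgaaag
MT-RNR2, chrM:2427-2493: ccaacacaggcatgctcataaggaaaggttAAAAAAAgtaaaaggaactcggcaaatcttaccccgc
MT-CO1, chrM:6662-6728: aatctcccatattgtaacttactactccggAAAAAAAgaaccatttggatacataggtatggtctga
MT-ND5, chrM:12388-12455: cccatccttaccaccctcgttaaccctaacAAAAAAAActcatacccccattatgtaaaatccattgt
MT-ND6, chrM:14323-14385: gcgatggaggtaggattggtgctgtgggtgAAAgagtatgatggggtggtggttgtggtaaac
The run was 8 bases in MT-ND5, 7 in MT-RNR2 and in MT-CO1, 6 in MT-RNR1 and 3 in MT-ND6. MT-ND6 thus had the shortest run of these 5 genes, and A made up 19.6% of its bases against 33.0% of MT-RNR1. Its longest run of T, which is a run of A on the other strand, was 7 bases. Protein genes of lower level per length had runs of A as long. The run was 7 in MT-ND2 and MT-ND4 and 6 in MT-ND1 and MT-ATP8. It was 5 in MT-CO2, MT-ATP6, MT-CO3 and MT-ND3, 4 in MT-CYB and 3 in MT-ND4L.

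Most mitochondrial RNA in these libraries was ribosomal. The 37 genes took 3.64% of the 793413159 summed counts. The 2 rRNA genes alone took 3.22%, which is 88.3% of the mitochondrial counts. The 13 protein genes took 0.426%, or 11.7% of the mitochondrial counts, and the tRNA genes 0.0005%. For scale, 79 nuclear genes for subunits of oxidative phosphorylation took 0.0995% of all counts and 86 genes for proteins of the cytosolic ribosome 0.156%.

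Both rRNA genes stood above every protein gene, and MT-ND6 was the highest protein gene per length. Levels are given per kilobase of gene as CPM, the gene's counts scaled to a fixed library total, from the sum over all cells. MT-RNR1 (chrM:648-1601) reached 20040 and MT-RNR2 (chrM:1671-3229) 8382. MT-ND6 (chrM:14149-14673, minus strand) reached 1002, MT-CO1 (chrM:5904-7445) 644 and MT-ND5 (chrM:12337-14148) 576. The other 3 genes of complex IV and complex III followed lower, with MT-CYB at 254, MT-CO3 at 236 and MT-CO2 at 149. Both genes of complex V were close to each other, MT-ATP6 at 223 and MT-ATP8 at 208. Of the remaining complex I genes, MT-ND4 stood at 396, MT-ND4L at 225, MT-ND1 at 144 and MT-ND2 at 142, while MT-ND3 was the lowest protein gene at 67.8. Strand use in counting is not stated, so reads of MT-ND6 and reads from the opposite strand at that place cannot be told apart.

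The tRNA genes were barely counted. The highest of the 22, MT-TP, had 2.03 CPM and 29.9 CPM per kilobase, and 4 of them (MT-TA, MT-TK, MT-TQ and MT-TW) had no count in any cell. None reached a mean of 10 CPM over the tags, so they are followed below only where a test called one. Counts given to nuclear copies of mitochondrial genes were few: 415 gene names of such copies together held 0.0672% as many counts as the 37 genes. The share was highest for MT-ND3, whose copies held 1.53% as many counts as the gene itself.

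**Figure D1:**
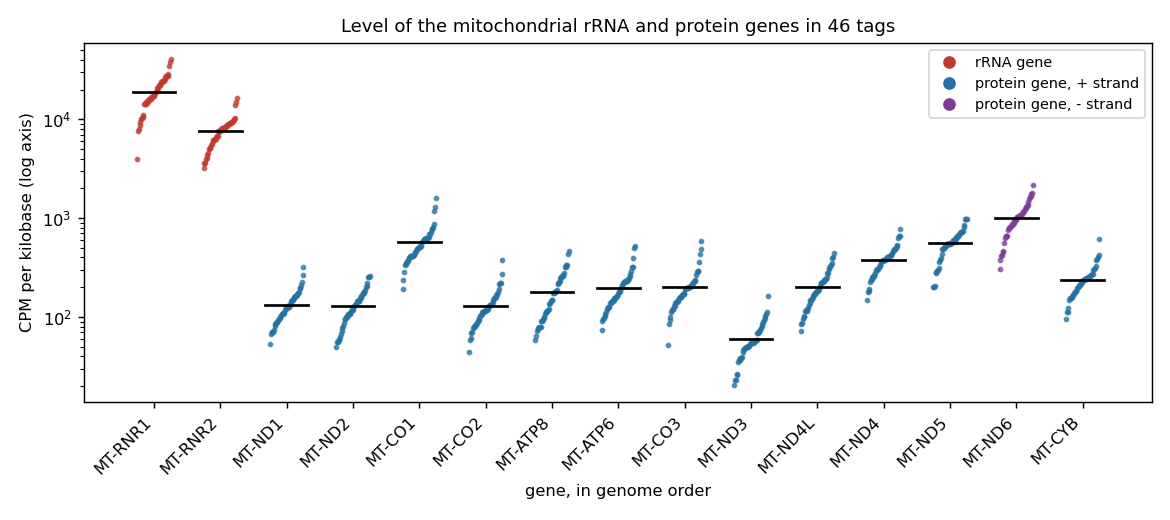
Level of each rRNA and protein gene in CPM per kilobase (log axis), genes in genome order, with 1 point for each of 46 tags sorted by level and a line at the mean over tags. MT-RNR1 and MT-RNR2 sit above all protein genes, and MT-ND6 is the highest protein gene by the mean.

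Every gene varied several-fold between tags. In CPM, MT-RNR1 averaged 18195 ± 7497 (SD, n = 46 tags) and ran from 3750 to 38846. MT-RNR2 averaged 11870 ± 4340 and ran from 5034 to 25701. MT-ND5, the highest of the protein genes in CPM, averaged 1008 ± 357, and MT-ND3, the lowest, 20.7 ± 9.51. In the middle of the protein genes lay MT-ATP6 at 135.4 ± 65.7 and MT-ND2 at 135.8 ± 57.1. MT-ND6 averaged 529.6 ± 216. The ratio of MT-RNR1 to MT-RNR2 counts was itself variable, from 0.708 to 3.41 over the 46 tags, so the rRNA genes did not keep a fixed proportion.

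The deposited cells end at a mitochondrial share of 10%. The highest share was 9.998%, with 0 cells above 10, so cells above that level are not in what follows. The median cell had 2.63% and the quartiles were 1.00% and 4.88%. Of all cells 24.0% were above 5% and 2.98% above 9%, and over all cells together the number fell with each further percent. This did not hold in every arrangement. In 2DCocu 536, 570 and 506 cells lay at 7 to 8%, 8 to 9% and 9 to 10%. In 2DProto4Nic the number was highest at 6 to 7%, with 362 cells, and 212 lay at 9 to 10%. How many cells above 10% each arrangement had cannot be told. At the other end, 26 cells had no mitochondrial count.

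Tags held 317 to 1959 cells and 3624670 to 58777200 counts, and the median cell had 12776 counts. Within a tag, cells with more counts tended to have a higher share: Spearman's rho between a cell's total and its mitochondrial share had a median of 0.164 over tags and was positive in 42 of 46. The share was 3.56% to 3.73% in the 8 sublibraries. Of 41192 barcodes, 2393 occurred in more than 1 sublibrary, each time within 1 tag. A doublet caller marked 1212 cells (2.77%), which were kept.

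The tags fell between 1.04% (3DProto1For 3) and 6.83% (2DProto4Nic 1). Both 2DProto4Nic tags were high, at 6.83% and 6.71%. The 3 tags of 3DProto2Xia were low, at 1.45%, 2.13% and 1.92%, while 3DProto1For spread widely at 2.36%, 4.30% and 1.04%. Tags of 1 arrangement could thus lie further apart than some tags of different arrangements.

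**Figure D2:**
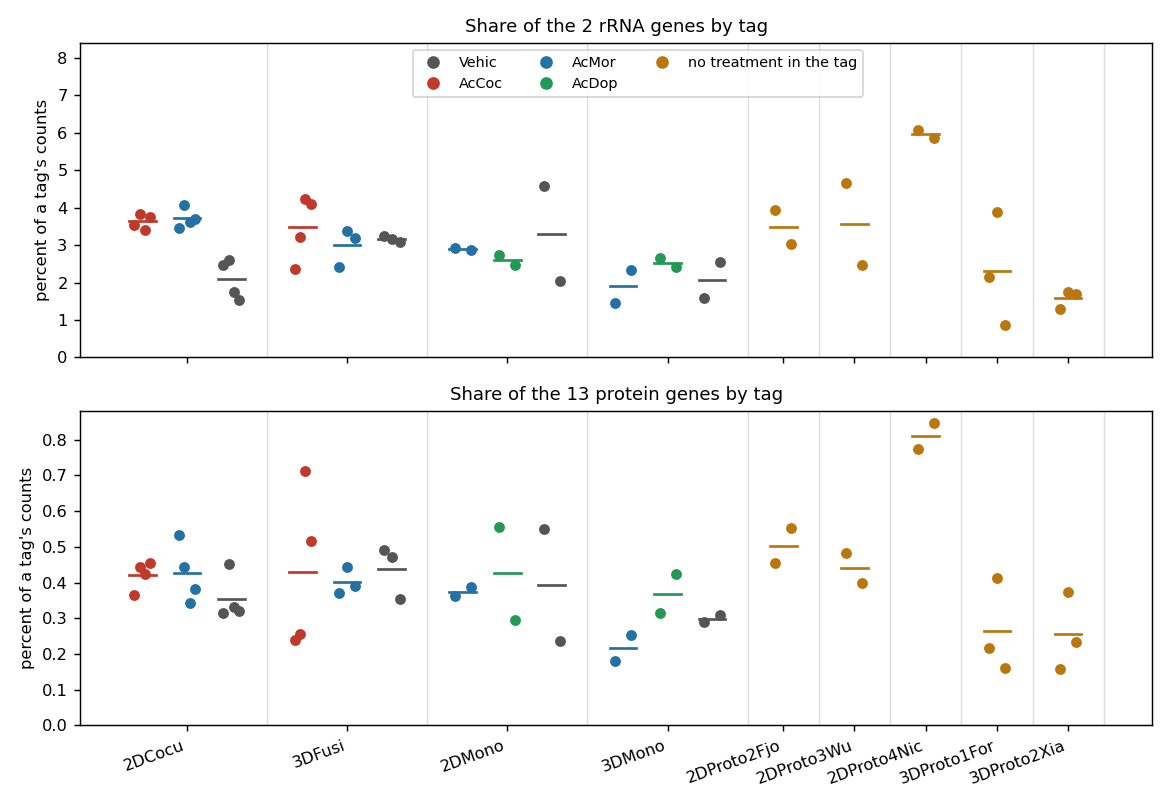
Percent of a tag's counts from the 2 rRNA genes (top) and the 13 protein genes (bottom), 1 point per tag, grouped by arrangement and coloured by treatment, with a line at each group's mean. In 2DCocu the rRNA shares of all 8 AcCoc and AcMor tags lie above those of the 4 Vehic tags, while the protein shares overlap.

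In 2DCocu the mitochondrial share was higher in the AcCoc and AcMor tags than in the Vehic tags, and most of the difference in percentage points was in the rRNA genes, which hold most of the counts. The 37 genes took 3.89%, 4.29%, 3.84% and 4.21% of counts in the AcCoc tags 1 to 4. They took 4.00%, 4.51%, 3.96% and 4.09% in the AcMor tags, and 2.77%, 3.06%, 2.08% and 1.87% in the Vehic tags. All treated tags lay above all Vehic tags. The means were 4.05% ± 0.226 (SD, n = 4) in AcCoc, 4.14% ± 0.255 (n = 4) in AcMor and 2.44% ± 0.564 (n = 4) in Vehic. By the two-sided exact permutation test p was 0.0286 for each treatment, the smallest that 4 tags against 4 can give, and 0.0571 after adjustment over the 10 shares tested in this arrangement. Both treatments were compared with the same 4 Vehic tags. A share is relative, so more mitochondrial RNA and less of the other RNA cannot be told apart.

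The rRNA genes took 3.63% in AcCoc and 3.72% in AcMor against 2.09% in Vehic, with no overlap (exact permutation p = 0.0286, adjusted 0.0571, for each). The protein genes took 0.422% and 0.426% against 0.355%, and both groups overlapped Vehic (exact permutation p = 0.114 for AcCoc and 0.2 for AcMor, adjusted 0.163 and 0.25). The rRNA part of the mitochondrial counts was 89.6% in AcCoc and 89.7% in AcMor against 85.1% in Vehic. That part did not overlap for AcCoc (exact permutation p = 0.0286, adjusted 0.0571), and it did for AcMor (p = 0.0571, adjusted 0.0952).

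Other properties of the cells differed between these groups as well. The median counts per cell of a tag averaged 11580 over the AcCoc tags, 11638 over the AcMor tags and 9408 over the Vehic tags. Cells above 9% mitochondrial counts made up 6.27% and 6.54% of cells against 1.94%. Cells above 5% made up 31.7% of cells in AcCoc and 33.1% in AcMor against 17.1% in Vehic. Leaving them out, a limit on the compared quantity itself that takes more from the treated groups, brought the difference in share from 1.61 to 0.587 percentage points for AcCoc and from 1.70 to 0.498 for AcMor. Within single sublibraries the difference was between 1.20 and 2.19 for AcCoc and between 1.39 and 2.07 for AcMor. With every cell given the same weight whatever its depth, the mean of the cells' own shares was 3.70% in AcCoc and 3.74% in AcMor against 2.44% in Vehic, a smaller difference of 1.26 and 1.30 percentage points (exact permutation p = 0.0286, adjusted 0.0571, for each). The part of depth in a cell's own share was not tested.

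Gene by gene, MT-RNR1, MT-RNR2 and MT-CO1 rose in both treatments by edgeR, and the other mitochondrial genes did not pass by that tool. The tests used edgeR on counts summed per tag with Benjamini-Hochberg adjustment over all genes tested, called at 0.05. In 2DCocu, 16 of the 37 genes passed the filter on low counts: the 15 rRNA and protein genes and MT-TP. For AcCoc against Vehic 3 of the 16 were higher and 0 lower, where 6.1% of 21032 genes were called (3.6% higher and 2.5% lower). For AcMor against Vehic 3 were higher and 0 lower, where 0.975% of 21032 were called (0.685% higher and 0.29% lower). At an unadjusted p under 0.05 the numbers were 8 and 6 of 16, where 22.1% and 14.4% of all genes were. The log2 fold change was above 0 for 16 of 16 in AcCoc and for 15 of 16 in AcMor, with medians of 0.36 and 0.33, against medians of -0.0017 and 0.0067 over all genes tested. DESeq2, run as an alternative, called 4 mitochondrial genes for AcCoc and 3 for AcMor, among 2010 and 696 genes called in all.

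MT-RNR1, the small-subunit rRNA, had 22778, 25812, 21248 and 23361 CPM in the AcCoc tags. It had 21186, 26075, 24297 and 23130 CPM in the AcMor tags, and 15006, 17420, 7603 and 8329 CPM in the Vehic tags. Vehic 3 and Vehic 4 were lowest, and neither treatment overlapped Vehic. It rose by a log2 fold change of 1.00 (SE 0.19, adjusted p = 0.0075, edgeR) in AcCoc and 1.03 (SE 0.19, adjusted p = 0.024, edgeR) in AcMor.

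MT-RNR2, the large-subunit rRNA, had 12451, 12594, 12865 and 14174 CPM in AcCoc. It had 13486, 14623, 11866 and 13944 CPM in AcMor, and 9571, 8643, 9830 and 7113 CPM in Vehic. The groups were again apart, with a narrower spread among the Vehic tags than for MT-RNR1. The log2 fold change was 0.60 (SE 0.12, adjusted p = 0.010, edgeR) in AcCoc and 0.66 (SE 0.12, adjusted p = 0.024, edgeR) in AcMor. The MT-RNR1 to MT-RNR2 ratio was 1.79 in AcCoc, 1.77 in AcMor and 1.38 in Vehic. That ratio overlapped between groups (exact permutation p = 0.2 for each), with Vehic 3 at 0.773 and Vehic 2 at 2.02.

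MT-CO1, the catalytic subunit of complex IV, had 808, 879, 974 and 974 CPM in AcCoc against 613, 757, 610 and 633 CPM in Vehic, without overlap. In AcMor it had 1124, 947, 724 and 915 CPM, so AcMor 3 lay below Vehic 2. The log2 fold change was 0.52 (SE 0.12, adjusted p = 0.022, edgeR) in AcCoc and 0.55 (SE 0.12, adjusted p = 0.046, edgeR) in AcMor.

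The AcMor calls rested on few tags: without AcMor 1, AcMor 2 or AcMor 4 none of the 37 genes was called, and without Vehic 1 or Vehic 3 1 was. With the tag number as a replicate block MT-RNR2 and MT-CO1 lost their AcMor calls (adjusted p = 0.0662 and 0.0926, edgeR). The fold changes moved less: over 15 alternatives the log2 fold change of MT-RNR1 in AcMor stayed between 0.87 and 1.22. For AcCoc 2 to 5 genes were called with any 1 tag left out, and 5 without Vehic 2. In AcCoc MT-CO1 lost its call without AcCoc 3, AcCoc 4, Vehic 1 or Vehic 3, and MT-RNR1 lost it with no filter on low counts, as it did in AcMor (adjusted p = 0.0643 and 0.118, edgeR). MT-RNR2 in AcCoc was called under all 15 alternatives tried, at an adjusted p of at most 0.0378 (edgeR or DESeq2).

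MT-ND6, a complex I subunit and the protein gene of the minus strand, overlapped fully between the groups. It had 556, 712, 582 and 678 CPM in AcCoc, 858, 664, 506 and 539.5 in AcMor and 464, 947, 553 and 563 in Vehic. Vehic 2 was the highest of all 12 tags, and the log2 fold changes were 0.04 (SE 0.19) and 0.06 (SE 0.19), with adjusted p = 0.929 and 0.925 (edgeR). MT-ND5, the highest protein gene in CPM, had 1027, 1350, 1090 and 1227 CPM in AcCoc, 1489, 1305, 992 and 1035 in AcMor and 1023, 1320, 903 and 985 in Vehic. Its log2 fold changes were 0.19 and 0.23 (SE 0.13 each), and neither passed.

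The middle and the lowest protein genes overlapped between groups as well. MT-ATP6 had 87.0, 98.4, 125.4 and 115.1 CPM in AcCoc, 141.8, 105.3, 83.8 and 99.1 in AcMor and 65.5, 107.8, 97.5 and 73.0 in Vehic, with log2 fold changes of 0.35 in each treatment. MT-ND2 had 112.1, 161.6, 149.98 and 162.4 CPM in AcCoc, 169.7, 123.4, 105.03 and 111.2 in AcMor and 80.0, 135.9, 100.3 and 106.4 in Vehic, with log2 fold changes of 0.51 and 0.30. MT-ND3 had 26.9, 18.8, 16.2 and 18.7 CPM in AcCoc, 13.8, 16.2, 16.7 and 15.2 in AcMor and 12.6, 17.8, 24.2 and 13.4 in Vehic. It was the 1 gene of the 16 with a log2 fold change below 0 in AcMor, at -0.09, against 0.28 in AcCoc. None of these 3 passed in either treatment. The other 7 protein genes (MT-ND1, MT-ND4, MT-ND4L, MT-CYB, MT-CO2, MT-CO3 and MT-ATP8) had log2 fold changes from 0.20 to 0.48 and did not pass.

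**Figure D3:**
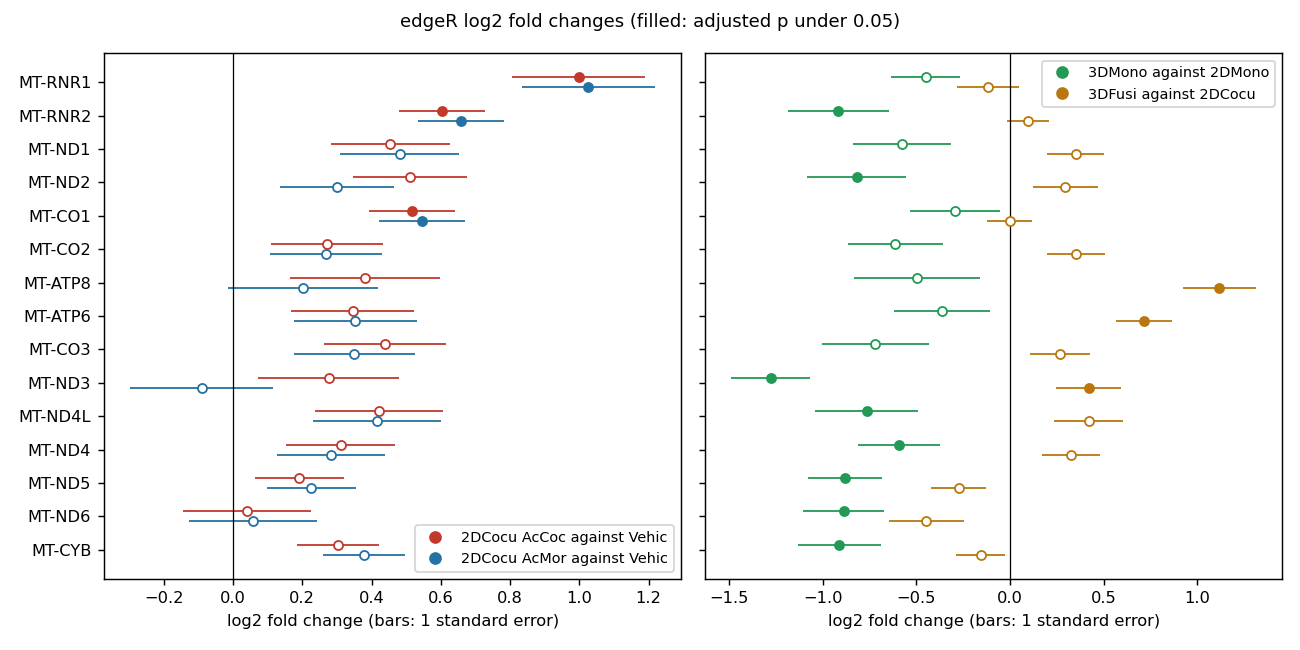
Log2 fold change of each rRNA and protein gene, genes in genome order, for AcCoc and AcMor against Vehic in 2DCocu (left) and for 3-D against 2-D arrangements (right). Bars are 1 standard error and filled points have an edgeR adjusted p under 0.05. On the left only MT-RNR1, MT-RNR2 and MT-CO1 are filled, and on the right most 3DMono points lie below 0.

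Few nuclear genes of the same complexes were called in 2DCocu, where over all genes 3.6% were higher and 2.5% lower for AcCoc, and 0.685% and 0.29% for AcMor. Of 79 nuclear genes for subunits of oxidative phosphorylation, 77 were tested. For AcCoc 1 was higher (ATP5F1B, the beta subunit of ATP synthase, log2 fold change 0.59, SE 0.17) and 0 lower. For AcMor 0 were higher and 0 lower. The median log2 fold change of the list was 0.07 and 0.09. Of 31 nuclear genes for mitochondrial DNA upkeep, transcription and RNA processing 1 was higher in AcCoc, LRPPRC, which binds mitochondrial mRNAs (log2 fold change 0.33, SE 0.08), and none in AcMor. Of 71 tested genes for proteins of the mitochondrial ribosome 2 were higher in AcCoc and 1 in AcMor. Of 83 tested genes for proteins of the cytosolic ribosome 2 were higher in AcCoc, with a list median of 0.27, and 0 in AcMor, with a median of 0.17. Each AcCoc count of these 4 lists is a smaller share of its list than the 3.6% of all genes that were higher, and the AcMor counts are of 1 gene or none.

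The difference was also seen within cell classes. Cells were clustered without the 37 genes, and clusters were named from marker lists, with -like marking names that rest on markers alone. 5 classes had at least 20 cells in each 2DCocu tag: astrocyte-like, excitatory neuron-like and cycling cells, and 2 clusters that no list named, called here by leading genes as ALDH1L1/PIK3C2G cells and SLC6A5/PAX2 cells. The astrocyte-like name rests on 4 of 8 markers, and the leading genes of that cluster were RASSF9, CYTOR and LRRC2. In each of the 3 named classes the same cluster held most cells in all 3 groups. The cycling class leaves out a cluster of 359 cells that met 8 of 8 cycling markers but was not named. In 2DCocu that cluster made up 2.56% of AcCoc, 2.46% of AcMor and 4.68% of Vehic cells. The values for cycling cells below thus describe only part of the cells with cycling markers.

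In astrocyte-like cells the 37 genes took 5.82%, 6.05%, 6.31% and 7.25% of the class's counts in the AcCoc tags. They took 6.55%, 6.49%, 5.61% and 5.01% in AcMor and 3.30%, 3.59%, 1.88% and 2.46% in Vehic. In excitatory neuron-like cells they took 1.57%, 1.92%, 1.87% and 2.29% in AcCoc, 1.79%, 1.87%, 1.78% and 1.63% in AcMor and 0.736%, 1.28%, 0.598% and 0.559% in Vehic. All treated tags lay above all Vehic tags in both classes, although the level in excitatory neuron-like cells was lower throughout.

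In cycling cells the means were 4.07% ± 0.624 in AcCoc and 4.40% ± 0.158 in AcMor against 1.47% ± 0.654 in Vehic (SD, n = 4 tags each). In ALDH1L1/PIK3C2G cells they were 6.39% and 6.15% against 3.33%, and in SLC6A5/PAX2 cells 2.05% and 1.94% against 1.18%. For 9 of these 10 comparisons the groups did not overlap (exact permutation p = 0.0286, adjusted 0.0429 over 30 tests), and the exception was SLC6A5/PAX2 cells in AcMor (exact permutation p = 0.0571, adjusted 0.0659). All 30 tests drew on the same tags, so the classes do not replicate each other. For whole tags the same exact permutation p of 0.0286 was adjusted to 0.0571. The adjusted value depends on how many of the tests adjusted together reach the smallest p. The rRNA shares lay apart from Vehic in 9 of the 10 comparisons and the protein shares in 2, for astrocyte-like cells in AcCoc (0.719% against 0.416%) and cycling cells in AcMor (0.408% against 0.196%). The median over tags of a tag's median counts per cell was 12122 and 12479 against 8938 in astrocyte-like cells and 9272 and 9074 against 7129 in excitatory neuron-like cells, higher in the treated groups here too.

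**Figure D4:**
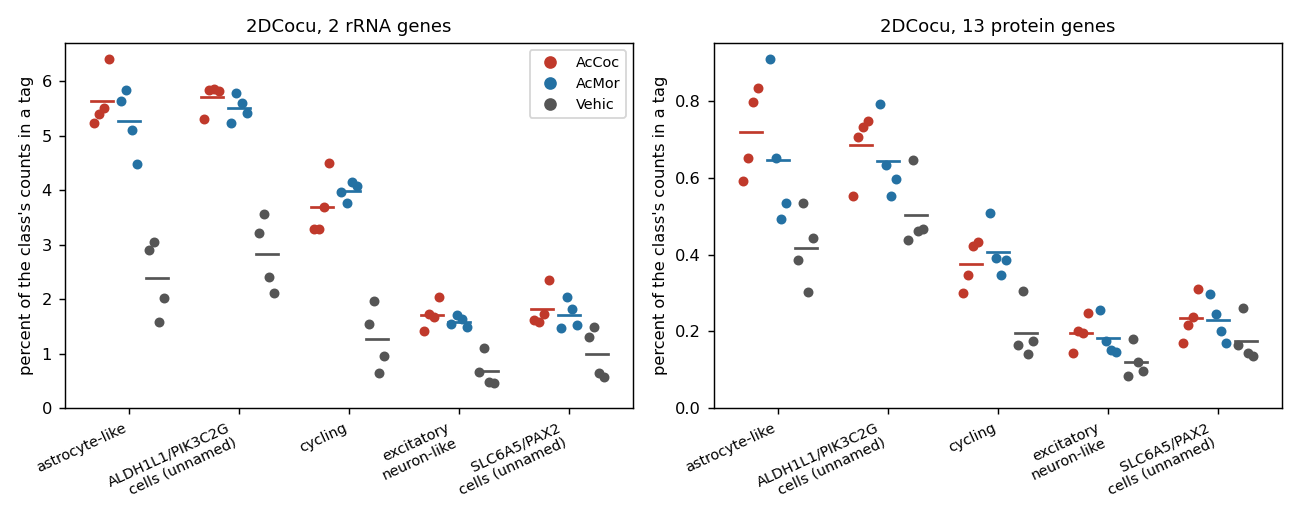
Percent of a class's counts from the 2 rRNA genes (left) and the 13 protein genes (right) in 2DCocu, 1 point per tag, with lines at group means. In the astrocyte-like, ALDH1L1/PIK3C2G, cycling and excitatory neuron-like cells every AcCoc and AcMor tag lies above every Vehic tag for the rRNA genes.

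The mix of classes differed between the groups as well. Excitatory neuron-like cells, a class with a low share, made up 32.1% of AcCoc and 27.8% of AcMor cells against 8.33% of Vehic cells. The ALDH1L1/PIK3C2G cells, with a high share, made up 14.7% and 15.7% against 31.4%. With every tag weighted to the same mix of the 9 clusters that had at least 5 cells in each tag, which hold 90.03% of 2DCocu cells, the difference in mitochondrial share was 2.16 percentage points for AcCoc and 2.03 for AcMor. The difference in the share of the protein genes also grew under this weighting. It was 0.151 for AcCoc (exact permutation p = 0.0571, adjusted 0.0816) and 0.127 for AcMor (exact permutation p = 0.0857, adjusted 0.107), and the groups still overlapped. Other alternatives went the other way for the protein genes. By the mean of the cells' own shares the difference was 0.0272 and 0.0267 (exact permutation p = 0.571 and 0.6, adjusted 0.698 for each). Among cells of at most 5% it was -0.00666 and -0.0132. The part of the mix in the unweighted difference was not tested otherwise.

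Tests within classes called 1 to 49 genes, 0 to 5 of them mitochondrial. At an unadjusted p under 0.05, for AcCoc and AcMor in turn, there were 15 and 13 of 16 mitochondrial genes in astrocyte-like cells (7.16% and 5.07% of all genes tested there). There were 14 and 15 of 15 in cycling cells (6.39% and 4.59% of all), and 10 and 7 of 15 in excitatory neuron-like cells (8.67% and 7.45%). In ALDH1L1/PIK3C2G cells there were 13 and 9 of 15 (7% and 5.15%), and in SLC6A5/PAX2 cells 6 and 4 of 15 (11.6% and 10%). In astrocyte-like cells edgeR called 4 of 16 tested mitochondrial genes for AcCoc, all higher, where 0.0515% of 13581 genes were called (0.0442% higher and 0.00736% lower). They were MT-RNR1 (log2 fold change 1.41, SE 0.21), MT-RNR2 (1.06, SE 0.13), MT-CO1 (1.00, SE 0.16) and MT-CO3 (0.96, SE 0.18). For AcMor it called MT-RNR1 (1.29, SE 0.21) and MT-RNR2 (0.96, SE 0.13), the 2 genes called in all, or 0.0147%. Without AcMor 2 neither was called, and with other tags left out the AcCoc count was 2 to 8.

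In cycling cells 4 of 15 tested mitochondrial genes were higher for AcCoc, where 0.0633% of 11056 genes were called, and 5 for AcMor, where 0.0543% were called. MT-RNR2 led with log2 fold changes of 1.40 and 1.54 (SE 0.16 and 0.17). MT-CO1 (1.21 and 1.37), MT-ATP6 (1.20 and 1.16) and MT-CO3 (1.19 and 1.13) rose in both, and MT-ND5 (1.03) in AcMor. MT-RNR1 did not pass in cycling cells. These counts ran from 1 to 12 for AcCoc and from 2 to 13 for AcMor with 1 tag left out, the highest without Vehic 2 and the lowest, for each treatment, without Vehic 1 (for AcMor also without AcMor 1, AcMor 4 or Vehic 4).

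In excitatory neuron-like cells MT-RNR2 was the only mitochondrial gene called, and it was higher in both treatments. For AcCoc it rose by 1.15 (SE 0.15, adjusted p = 0.00081, edgeR), where 0.101% of 12879 genes were called (0.0233% higher and 0.0776% lower). For AcMor it rose by 1.08 (SE 0.15, adjusted p = 0.0035, edgeR), where 0.116% were called (0.0311% higher and 0.0854% lower). Without Vehic 2, 4 and 3 mitochondrial genes were called. In ALDH1L1/PIK3C2G cells MT-RNR1 (1.26, SE 0.18) and MT-RNR2 (0.75, SE 0.12) rose for AcCoc, where 0.0211% of 14185 genes were called, and MT-RNR1 (1.19, SE 0.18) for AcMor, where 0.00705% were. In SLC6A5/PAX2 cells none of 15 tested mitochondrial genes was called, where 0.455% and 0.4% of 10762 genes were (edgeR; 6 and 4 of the 15 had an unadjusted p under 0.05, and DESeq2 was not run within classes). In all 5 classes and for both treatments, 0 nuclear genes for subunits of oxidative phosphorylation were called. The numbers tested were 50 in astrocyte-like, 29 in cycling, 48 in excitatory neuron-like, 53 in ALDH1L1/PIK3C2G and 30 in SLC6A5/PAX2 cells. Between 0.00705% and 0.455% of all genes tested in a class were called. A count of 0 in lists of this size is thus near the share of all genes and shows nothing particular to them. Whether the treatment effect differs between classes was not tested.

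Keeping only cells of at most 5%, a limit that cuts more from groups and classes with more cells above it, gave lower class values. In cycling cells they were 3.24% in AcCoc and 3.07% in AcMor against 1.27% in Vehic. In excitatory neuron-like cells they were 1.61% and 1.47% against 0.761%, and in astrocyte-like cells 2.37% and 2.26% against 1.78%. They were 2.47% and 2.36% against 1.91% in ALDH1L1/PIK3C2G cells and 1.53% and 1.51% against 0.997% in SLC6A5/PAX2 cells. The treated tags then lay above all Vehic tags in 4 of the 10 comparisons, cycling cells in both treatments and excitatory neuron-like and SLC6A5/PAX2 cells in AcCoc. The other 6 overlapped, with an exact permutation p between 0.0571 and 0.2.

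In 3DFusi the AcCoc and AcMor tags overlapped the Vehic tags. The AcCoc tags 1 to 4 had 2.60%, 3.47%, 4.94% and 4.61% mitochondrial counts, and spread more widely than the Vehic tags 1, 3 and 4 at 3.73%, 3.63% and 3.43%. The AcMor tags 1, 3 and 4 had 2.80%, 3.81% and 3.57%. The exact permutation p was 0.629 for AcCoc and 0.8 for AcMor, where the smallest p that 3 tags against 3 allow is 0.1. MT-RNR1 changed by a log2 fold change of 0.23 (SE 0.29) in AcCoc and -0.03 (SE 0.31) in AcMor, and MT-RNR2 by 0.02 (SE 0.23) and 0.01 (SE 0.25). None of 19 tested mitochondrial genes was called for either treatment by edgeR, where 0% of 23679 genes were called. At an unadjusted p under 0.05 there were 0, where 1.66% of all genes were for AcCoc and 0.747% for AcMor. DESeq2 called 0 of them, where it called 0.0023% of 43548 genes for AcCoc and 0% for AcMor. These tests left the tag numbers unused, although the numbers were taken to pair the 3DFusi tags. With the tag number as a replicate block edgeR again called none of the 19. MT-RNR1 then changed by 0.23 (SE 0.23) in AcCoc and -0.10 (SE 0.23) in AcMor. At an unadjusted p under 0.05 there was then 1 for AcCoc and 0 for AcMor, and the share over all genes in that fit is not given here.

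The difference between the arrangements was itself tested as an interaction. For AcCoc the effect on MT-RNR1 was lower in 3DFusi than in 2DCocu by a log2 difference of -0.75 (SE 0.35, adjusted p = 0.826, edgeR), and on MT-RNR2 by -0.56 (SE 0.24, adjusted p = 0.779, edgeR). For AcMor these were -1.05 (SE 0.36) and -0.64 (SE 0.25), with an adjusted p of 1.00 for each (edgeR). None of 19 mitochondrial genes passed, where 0.00425% of 23504 genes were called for AcCoc and 0% for AcMor, and 2 and 3 of the 19 had an unadjusted p under 0.05, as had 5.9% and 3.67% of all genes. With the tag number as a replicate block, since the numbers were taken to pair the 3DFusi tags, MT-RNR1 differed by -0.79 (SE 0.30, adjusted p = 0.347, edgeR) for AcCoc and -1.18 (SE 0.30, adjusted p = 0.377, edgeR) for AcMor, and again none of the 19 passed. The effects were thus not shown to differ between the arrangements.

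In 2DMono and 3DMono, with 2 tags a group, no share can reach an exact permutation p under 0.333. In 2DMono the Vehic tags were themselves far apart, at 5.14% and 2.27%, with AcDop at 3.28% and 2.76% and AcMor at 3.28% and 3.26% between them. In 3DMono, AcDop had 2.97% and 2.83%, AcMor 1.64% and 2.58% and Vehic 1.88% and 2.86%. edgeR called no mitochondrial gene in either arrangement, where 0% of 19416 and 0% of 22112 genes were called. At an unadjusted p under 0.05 there were 0 and 1 of 16 in 2DMono and 2 and 7 of 18 in 3DMono, for AcDop and AcMor in turn. Over all genes this share was 2.41% and 6.42% in 2DMono and 3.35% and 8.71% in 3DMono. For 3DMono AcMor DESeq2 called 1 mitochondrial gene, where it called 0.916% of 18881 genes. With no filter on low counts edgeR called 1 for 2DMono AcMor, 1 for 3DMono AcDop and 4 for 3DMono AcMor. These were among 185, 145 and 747 genes called in all.

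Between formats, 3DMono had lower MT-CYB and lower transcripts of 6 of the 7 complex I genes than 2DMono, while the shares overlapped. The 37 genes took 2.46% ± 0.561 of counts over the 6 tags of 3DMono and 3.33% ± 0.973 over the 6 of 2DMono (± SD). Permuting tags within treatments gave an exact permutation p of 0.102, adjusted 0.34. Cells above 5% made up 11.01% of cells in 3DMono and 21.2% in 2DMono, and among the cells of at most 5% the difference turned to 0.165 percentage points in favour of 3DMono (exact permutation p = 0.704). In the edgeR fit with treatment as a term, 10 of 20 tested mitochondrial genes were lower and 0 higher, where 37% of 22671 genes were called, 19.9% lower and 17.1% higher. Their median log2 fold change was -0.66, against 0.03 over all genes tested. MT-ND3 fell most among the protein genes, by 1.28 on the log2 scale (SE 0.21, adjusted p = 0.0003, edgeR). MT-ND5 (-0.88), MT-ND6 (-0.89), MT-ND2 (-0.82), MT-ND4L (-0.77) and MT-ND4 (-0.59) of complex I, and MT-CYB (-0.91) of complex III, fell as well. MT-RNR2 fell (-0.92, SE 0.27, adjusted p = 0.018, edgeR), while MT-RNR1 did not pass (-0.45, SE 0.18, adjusted p = 0.072, edgeR). MT-ND1 of complex I did not pass (-0.58, SE 0.26, adjusted p = 0.102, edgeR), and none of the complex IV or complex V genes did, though all 13 protein genes had a log2 fold change below 0. At an unadjusted p under 0.05 there were 14 of the 20, where 45.9% of all genes were, and with no filter on low counts 18 mitochondrial genes were called, all lower, among 9652 genes called in all. MT-TP (-1.74) and MT-TG (-2.46), tRNA genes named here because they were called, fell from very low levels.

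The values behind this show overlap between tags. MT-ND3 ran from 7.89 to 19.5 CPM in 3DMono against 17.3 to 56.2 in 2DMono. MT-ND6 ran from 161 to 459 against 349 to 882, and MT-RNR2 from 5691 to 10452 against 6814 to 23199. The high end of 2DMono was Vehic 1 for MT-ND3 and MT-RNR2 and AcDop 1 for MT-ND6. Without AcDop 1 of 2DMono 6 mitochondrial genes were called in place of 10, and the number over all genes in that refit is not given here. Of the nuclear genes for the same complexes, with 17.1% of all genes higher and 19.9% lower, 9 of 79 were higher, among them ATP5IF1 (1.17), ATP5F1D (0.81) and NDUFA3 (0.79), and 4 lower, among them NDUFS6 (-0.89), NDUFA12 (-0.65) and NDUFS5 (-0.58), with a list median of 0.24. Of the 31 genes for mitochondrial DNA upkeep and RNA, POLG2, a subunit of the mitochondrial DNA polymerase, was higher (0.43), and MTERF1 (-0.48), FASTKD2 (-0.30) and LRPPRC (-0.26) were lower. Cytosolic ribosomal protein genes were higher for 15 and lower for 1 of 84. The share that was higher is close to the 17.1% of all genes, while the share that was lower is well below the 19.9%.

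For 3DFusi against 2DCocu both complex V genes were higher, and neither rRNA gene passed the test. The share of the 37 genes was 3.66% in 3DFusi and 3.55% in 2DCocu, and the mean difference within treatments was 0.0837 percentage points (exact permutation p = 0.778, adjusted 0.911). Among cells of at most 5%, a limit on the compared share itself, 3DFusi was above 2DCocu by 0.644 (exact permutation p = 8.16e-05, adjusted 0.000408), where cells above the limit made up 25.4% and 27.3% of cells. The mean over all cells joined unlike parts, since the difference was 1.15 in Vehic tags, -0.748 in AcMor and -0.152 in AcCoc. MT-ATP8 rose by a log2 fold change of 1.12 (SE 0.20, adjusted p = 6.7e-05, edgeR), MT-ATP6 by 0.71 (SE 0.15, adjusted p = 0.00038, edgeR) and MT-ND3 by 0.42 (SE 0.17, adjusted p = 0.048, edgeR). MT-TL1 rose (0.89) and MT-TP fell (-0.91), both tRNA genes named because they were called. These were 4 higher and 1 lower of 19 tested, where 48.3% of 23504 genes were called (25.2% higher and 23.1% lower), so the share of members that was higher is near that of all genes. The median log2 fold change of the 19 was 0.33, against 0.03 over all genes tested.

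MT-ATP8 ran from 20.8 to 97.3 CPM in the 10 tags of 3DFusi and from 13.2 to 30.8 in the 12 tags of 2DCocu. MT-ATP6 ran from 95.0 to 269 against 65.5 to 141.8. The low ends of 3DFusi were AcCoc 2 and AcCoc 1, and without AcCoc 1 or AcCoc 2 the number of mitochondrial genes called was 9 and 10. It was 3 without AcMor 3 or Vehic 1 of 3DFusi or Vehic 1 of 2DCocu. With all tags it was 5 of 19 tested, among 11356 genes called in all. The numbers over all genes with a tag left out are not given here. MT-ATP6 was called under all 28 alternatives and MT-ND3 under 13 of 28.

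Most nuclear genes of the same complexes were higher in 3DFusi: 52 of 79 were higher and 3 lower, where 25.2% of all genes were higher. The list median was 0.42. Among them were ATP5PO (1.60), COX6A1 (1.52) and UQCR10 (1.52), and on the lower side NDUFA9 (-0.45), NDUFS4 (-0.39) and NDUFA12 (-0.30). By complex, 10 of 11 tested complex IV genes, 12 of 18 of complex V, 5 of 9 of complex III and 25 of 37 of complex I were higher, and 0 of 4 of complex II, the complex with no mitochondrially encoded subunit. Of the 31 genes for mitochondrial DNA upkeep and RNA 8 were higher, about the 25.2% of all genes, led by TRMT10C (1.11), POLG2 (0.99) and HSD17B10 (0.85), and 3 lower, TOP1MT (-0.43), TFB1M (-0.33) and MTERF3 (-0.33). Cytosolic ribosomal protein genes were higher for 81 of 84, with a median of 1.10, and the part of that rise in these counts was not tested.

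Among named cell classes, pooled over arrangements, the mean mitochondrial share was highest in mesenchymal-like cells and lowest in the neuron classes. Over tags with at least 20 cells of the class, it was 5.19% ± 1.42 (SD, n = 29 tags) in mesenchymal-like cells, 4.61% ± 1.68 (n = 18) in astrocyte-like, 4.40% ± 1.19 (n = 14) in choroid plexus-like and 4.63% ± 1.68 (n = 4) in muscle-like cells. It was 3.20% ± 1.36 (n = 39) in cycling and 3.04% ± 1.56 (n = 21) in progenitor-like cells, and 2.74% ± 1.19 (n = 16) in ciliated cells. The neuron classes were lowest among the named ones, at 2.37% ± 1.19 (n = 25) in neuron-like, 2.24% ± 0.833 (n = 31) in GABAergic neuron-like and 2.16% ± 1.31 (n = 41) in excitatory neuron-like cells. Neighbours in this order did not differ beyond their spread. The classes come from different tags, and the order turned within some arrangements. In 3DProto2Xia GABAergic neuron-like cells (2.09%, n = 2 tags) were above ciliated cells (1.20%, n = 3). In 2DProto2Fjo excitatory neuron-like cells (3.85%) were above progenitor-like cells (3.33%). In 2DCocu the mean was 5.03% over 12 tags in astrocyte-like and 4.52% over 7 tags in mesenchymal-like cells. Those 2DCocu means rest on unlike sets of tags, so they do not give an order.

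Compared within tags, astrocyte-like cells were above excitatory neuron-like cells by 3.53 percentage points in 2DCocu, in 12 of 12 tags (exact permutation p = 0.000488, adjusted 0.00195). In 2DMono they were above by 2.29, in 6 of 6 tags (exact permutation p = 0.0312, the smallest possible, adjusted 0.0625). Both results rest on the clustering and on the astrocyte-like name. At resolution 0.4 only a cluster of 328 cells kept that name, against clusters of 1761 and 329 cells at resolution 0.8. A cluster of 3186 cells met 3 of 8 astrocyte markers and was not named. This pair then had too few tags with enough cells of both classes in 2DCocu for a value. In 2DMono it had 3 such tags, with a difference of 2.04 (exact permutation p = 0.25, the smallest possible). Between GABAergic neuron-like and excitatory neuron-like cells the call changed with the clustering. The difference was -0.455 ± 1.14 (SD) in the 10 tags of 3DFusi, where GABAergic neuron-like cells were higher in 2 (exact permutation p = 0.182, adjusted 0.258), and -0.0515 ± 0.294 in the 6 tags of 3DMono (exact permutation p = 0.688). With coarser clusters, at resolution 0.4, it was -0.776 ± 0.875 in 3DFusi, with GABAergic neuron-like cells higher in 1 of 10 tags (exact permutation p = 0.00391, adjusted 0.0117), and -0.390 ± 0.351 in 3DMono (exact permutation p = 0.0625, adjusted 0.0938). At that resolution a cluster named GABAergic neuron-like held 3043 cells and was led by LHX8, LINC01409 and LINC00326. LINC00326 and LINC01409 also led a cluster that no list named at resolution 0.8, with a mean share of 0.935% in 3DFusi. The part of such cells in the change was not tested. For astrocyte-like and excitatory neuron-like cells the protein genes gave the same direction: in 2DCocu they took 0.594% and 0.166%, higher in 12 of 12 tags (exact permutation p = 0.000488, adjusted 0.00195).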

How the data were processed

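The matrix the authors deposited holds expected counts (estimated counts per gene and cell, not scaled) for 60286 genes and 43693 cells, and how each tool was set to make it is not stated in the submitters' processing notes. The notes name Salmon 1.7.0, alevin, Seurat 4.1.1 and hg38 without a role. No source used here states whether strand was used or how overlapping genes were handled. Sequences and coordinates come from GENCODE's GRCh38 annotation and genome.

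Expected counts were added up per tag, and per tag within a cell class. Shares are percent of these sums. They were tested over tags by exact permutation, two-sided, with Benjamini-Hochberg adjustment. For tests across genes the sums were rounded, filtered with filterByExpr, scaled by TMM and tested by the quasi-likelihood method of edgeR 4.0.16, robust option on (R 4.3.3, limma 3.58.1). DESeq2 1.42.0 was an alternative. Among the choices made after seeing the data were thinning cells to 5000 counts in the treatment comparisons and the replicate block in the interaction. The limit on a cell's mitochondrial share was not planned for the tests within classes. That the rule for naming clusters was set before the clusters were seen cannot be assumed. All tags of an arrangement, or of both formats, entered 1 fit.

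Doublets were scored against simulated sums of 2 cells of 1 sublibrary, and called cells were kept. Clusters came from scanpy 1.11.5 and leidenalg 0.10.2 at resolution 0.8 on 2000 variable genes without the 37, with 30 principal components and 20 neighbours (Python 3.11.15, numpy 2.4.6, scipy 1.17.1, pandas 2.3.3). To be named, a cluster had to meet at least 3 markers and 40% of a list. A marker was met if found in 10% or more of the cluster's cells at 2-fold or more the level of other cells. Meeting this was not always enough. A cluster of 359 cells met 8 of 8 cycling markers, but its top genes pointed more to a different list. A cluster of 93 cells fitted too many lists at once. These clusters stayed unnamed. Figures were drawn with matplotlib 3.10.9.

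The 37 genes, the gene lists and the markers were chosen with earlier results of these data known. All 15 rRNA and protein genes are named. Values per tag are given for the rRNA genes, MT-ND6, and the highest, lowest and middle protein genes, and for MT-CO1 because it was called. From the nuclear lists, up to 3 genes of largest change in each direction among those called are named. Same-numbered tags deviated together in 3DFusi, where all 9 correlations of deviations lay between 0.138 and 0.566, so the numbers were taken to pair them there. Tags of different numbers lay between -0.510 and 0.323 there. Some of these exceeded same-numbered pairs, as AcCoc 3 with Vehic 4 (0.323) against AcCoc 3 with Vehic 3 (0.164). The pairing is thus uncertain. No sample of the matrix was left out. On simulated counts for 2DCocu AcCoc against Vehic (20825 genes), the fit recovered 75 of 100 genes raised 2-fold and 56 of 98 lowered to 0.5-fold, with 8 false calls.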

Additional observations from a re-analysis of the deposited data

Results flagged for a closer look

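In 16 sets of values (4 groups of 4 tags in 2DCocu and 3DFusi, with 4 shares each) tested for a stray tag, 1 set held one, and chance flags about 1 in 20 such groups. In the Vehic tags of 2DCocu the share of the 13 protein genes was 0.452% in Vehic 2 and 0.314%, 0.333% and 0.321% in Vehic 1, 3 and 4. The gap from Vehic 2 to its nearest neighbour was 0.865 of the group's whole range, above the limit that Dixon's test sets for 4 values. MT-ND6 made up 21.0% of the protein-gene counts in Vehic 2 and 14.8%, 16.6% and 17.5% in the others. None of 38 tests of a difference in treatment effect between 3DFusi and 2DCocu, over the tested mitochondrial genes and both treatments, passed.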

How the results depend on the processing

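In 2DCocu the higher share of the 37 genes and of the rRNA genes kept its direction under every alternative run, and its adjusted permutation p stayed above 0.05 as in the values reported. With 1 tag left out the difference for the 37 genes was between 1.42 and 1.82 percentage points for AcCoc and between 1.51 and 1.90 for AcMor. Thinning each cell to 5000 counts, which leaves its expected share as it was, gave 1.26 and 1.29, with 127 AcCoc, 107 AcMor and 292 Vehic cells left out as too shallow. Cells of at most 5%, a limit on the compared share itself, turned several differences. The 2DCocu protein share turned to -0.00666 (AcCoc) and -0.0132 (AcMor), and the astrocyte-like AcMor protein share to -0.0138. In ALDH1L1/PIK3C2G cells the protein share turned to -0.0108 (AcCoc) and -0.0407 (AcMor). The 3DFusi AcCoc share turned to -0.0262. For 3DMono minus 2DMono the values were 0.165 for the 37 genes, 0.00747 for protein genes, 0.158 for rRNA genes and 1.10 for the rRNA part. With those cells 3DFusi was above 2DCocu by 0.644 (adjusted permutation p = 0.000408), 0.0880 for protein genes (0.0198) and 0.556 for rRNA genes (0.000408), all past the threshold. The cause was not tested. The 3DFusi AcCoc protein difference became 0.019 by the cells' median and 0.0499 with the replicate block by tag number. The 3DMono AcMor protein difference was -0.0411 by the median and -0.0365 with an equal mix, and the 2DMono AcMor rRNA part -1.33 with an equal mix. At resolution 0.4 GABAergic minus excitatory neuron-like cells in 3DFusi was -0.776 (adjusted permutation p = 0.0117), and no astrocyte-like class was found in all 2DCocu tags. There a cluster led by LHX8, LINC01409 and LINC00326 also held the GABAergic neuron-like name.

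Without the filter on low counts 1 mitochondrial gene was called for 2DMono AcMor, 1 for 3DMono AcDop, 4 for 3DMono AcMor and 18 for 3DMono against 2DMono, among 185, 145, 747 and 9652 genes called in all. DESeq2 called 1 for 3DMono AcMor, among 173. With the replicate block 1 was called for 2DCocu AcMor, where MT-RNR2 (adjusted p = 0.0662) and MT-CO1 (0.0926, edgeR) lost their calls, and the block changed no other call count of these genes by over 1.5 times. The tag numbers of 2DCocu, 2DMono and 3DMono share only a number: 1 of 12, 2 of 6 and 4 of 6 pairs had correlated deviations over 0.1. Of all genes, 1283 and 205 were called for AcCoc and AcMor in 2DCocu, 2010 and 696 by DESeq2 and 946 and 40 with the block. The block was not run for 3-D against 2-D.

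With 1 tag left out, the 3DFusi AcCoc differences ran from -0.0381 to 0.744 (37 genes) and -0.102 to 0.0558 (protein genes). For 3DFusi minus 2DCocu they ran from -0.0318 to 0.229 (37 genes), -0.0236 to 0.184 (rRNA), -0.00814 to 0.0444 (protein) and -0.0626 to 0.716 (rRNA part), and for the rRNA part of 3DMono minus 2DMono from -1.16 to 0.931. Mitochondrial genes called ran from 2 to 5 (2DCocu AcCoc), 0 to 2 (2DCocu AcMor), 0 to 2 (3DMono AcMor), 6 to 14 (3DMono against 2DMono) and 3 to 10 (3DFusi against 2DCocu). The numbers over all genes in these refits are not given here, so the ranges do not show a change particular to the mitochondrial genes. Within classes they ran, for AcCoc and AcMor, from 2 to 8 and 0 to 2 in astrocyte-like, 1 to 12 and 2 to 13 in cycling, and 1 to 4 and 1 to 3 in excitatory neuron-like cells.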
